A study of Vulpes vulpes with 8 samples.

Results

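CELA1, a serine elastase, and 8 genes of the elastic fibre, the structure that elastases cut, were followed in the gingiva of red foxes affected or unaffected by hereditary hyperplastic gingivitis (HHG), an inherited disease in which the gum overgrows. The genes were CELA1, ELN, FBN1, FBLN5, LOX, LOXL1, MFAP4, MFAP5 and EMILIN1. They were selected on the affected and unaffected values of these same foxes, in which CELA1 stood out, together with the known substrate of an elastase. They were found by symbol among the probe sets that the platform annotation gives a single gene, and 20 of the 42924 probe sets belonged to them. LOXL1 had no such probe set and is not analysed here. Each of the 8 arrays is 1 fox, named by its number in the labels. The 5 affected foxes were 19, 55 and 107 (males) and 381 and 757 (females), and the 3 unaffected foxes were 86 and 97 (males) and 402 (female). The labels give no treatment, age or strain. Some animals were sampled after euthanasia in the pelting season and others alive under anaesthesia in late spring, and the labels do not tie a fox to a season. The disease was diagnosed by red, raised, granular tissue at the tooth margin.

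Elastic fibres give tissue its recoil. They have a core of crosslinked elastin, made by ELN, laid on a scaffold of microfibrils built from fibrillin (FBN1) and carrying small glycoproteins such as MFAP4 and MFAP5. FBLN5 and EMILIN1 help to place elastin on that scaffold, and the lysyl oxidases LOX and LOXL1 crosslink it. Gingiva holds few mature elastic fibres, mostly around vessels, and also bundles of microfibrils without elastin. CELA1 belongs to the pancreatic type of chymotrypsin-like elastases; in humans it is known from the keratinocytes of the skin rather than from the pancreas.

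The arrays carried dog probe sets and were read with fox RNA. Values are MAS5 signals on a linear scale, and differences are on log2(signal + 16), which shrinks those of dim probe sets. The background of an array was set from its 42 bacterial control probe sets, at their 95th percentile, and ran from 7.42 to 16.6. Of the 20 probe sets, 15 passed the filter on low mean signal and were tested, for 7 of the 9 genes. The keratinocyte marker KRT13 (6515 to 12982) and the fibroblast markers COL1A1 (2272 to 9646) and COL3A1 (1453 to 6289) were bright in every fox, as gingiva should hold both epithelium and connective tissue. In limma with Benjamini-Hochberg adjustment, 0 of 25754 probe sets differed between affected and unaffected foxes at an adjusted p under 0.05 (0%), and 693 had an unadjusted p under 0.05 (2.69%; 1.16% higher and 1.53% lower in affected foxes).

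CELA1 was chosen for its difference between the groups, so its values are given as a description with no test. Its single probe set read 79.5, 271, 146, 55.1 and 246 in affected foxes 19, 55, 107, 381 and 757. It read 24.6, 3.19 and 15.2 in unaffected foxes 86, 97 and 402. The groups did not overlap: the dimmest affected fox, 381, lay above the brightest unaffected one, 86. That pattern, with each affected fox above each unaffected fox, was seen in 0.916% of the probe sets tested. Mean signals were 159.6 ± 96.6 (SD, n = 5) for the affected group against 14.4 ± 10.8 (SD, n = 3), and the log2 difference was 2.40 ± 0.47 (SE). Unaffected fox 97 was below the background of its array, at 9.46, and the other two unaffected foxes were above theirs, at 13.0 and 7.42. Within the affected group the brightest 3 foxes were 55, 757 and 107, of both sexes.

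**Figure D1:**
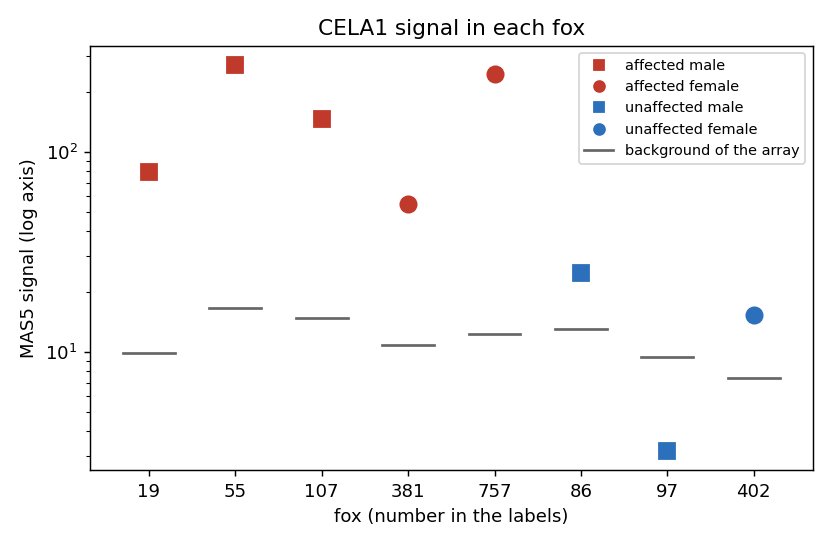
MAS5 signal of CELA1 (vertical log axis) in each fox, affected on the left in red and unaffected on the right in blue, squares for males and circles for females, with the background of each array as a grey bar. The affected foxes lie between 55.1 and 271, all above the unaffected foxes, of which fox 97 is below its background.

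The CELA1 difference was also read in subsets of the foxes. Its groups did not overlap, so the sign was fixed in every subset and only the size is described. Among males the difference was 2.56, and among females, with a single unaffected animal, 2.13. By the 5' signal of the beta-actin control probe sets the foxes formed a bright and a dim set, with foxes 86, 97, 107 and 757 at 7831 to 8868 and foxes 19, 55, 381 and 402 at 1354 to 2336, and the CELA1 difference was 2.88 within the former and 2.00 within the latter. With any 1 fox left out it ranged from 2.10 to 2.67.

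Markers of tissues and cells that could carry elastase RNA were read beside it. Of 13 pancreatic acinar genes listed, 7 had a probe set. CPA1, pancreatic carboxypeptidase A, was at background on all 8 arrays, and PNLIP and CTRB2, pancreatic lipase and a chymotrypsinogen, were above it on 1 and 2. CPB1 and CTRL, a carboxypeptidase and a chymotrypsin-like protease, were above it on 2 and 4. CLPS, the cofactor of pancreatic lipase (34.3 to 86.6), and CEL, a lipase (12.1 to 28.2), were above it on all 8. The summed signal of the 7 was 74.2 to 147 in the affected group and 98.1 to 160.4 in the unaffected, overlapping ranges. Neutrophil elastase, ELANE, was also at background on every array, with a highest signal of 3.92. The sum of the neutrophil list ran from 25766 to 30937 with disease and from 25437 to 29123 without, and 6 of 8 tested genes had higher means in affected foxes with 0 called by limma. Nearly all of that sum came from S100A8 (13338 to 17745) and S100A9 (10779 to 15794), the subunits of calprotectin, which epithelium also makes. The other 9 genes, a sum formed after the data were seen, came to 419 to 798 with disease and 179.9 to 365 without. Here the groups did not overlap. In this direction 0.916% of single probe sets separated, but that share is no background for a sum of genes chosen afterwards. No share was computed for like sums, so the separation is a description. LCN2, at 58.7 to 571, was the brightest of the 9. Lipocalin LCN2 (1.44 ± 0.35, SE), lactoferrin LTF (1.28 ± 0.51) and MMP9 (1.23 ± 0.33), named after their values were seen, had an unadjusted p under 0.05 in limma (adjusted p = 0.9999 each). Such a p was seen in 2.69% of all probe sets tested. CAMP and CD177 were lower in affected foxes, at -0.41 and -0.28. S100A8, S100A9 and CSF3R differed by 0.060, 0.096 and 0.062, and the median of the 8 tested genes was 0.079. The sum of the keratinocyte list ran from 18108 to 29466 with disease and from 13512 to 30380 without, with 5 of 10 tested genes higher. In the cornified envelope list, genes of the outermost keratinocytes, all 6 tested genes had higher means with disease, at a median of 0.63, with 0 called and 0 at an unadjusted p under 0.05. Its sum ran from 6355 to 12892 with disease and from 1827 to 11714 without. Over all genes tested, 45.3% had higher means in affected foxes. The mean centred log2 signal of the list was -1.85 in unaffected fox 86, but 0.23 and 0.36 in unaffected foxes 97 and 402. In affected foxes 19, 55, 107, 381 and 757 it was 0.97, 0.32, 0.35, 0.49 and -0.87. The keratinocyte and cornified envelope ranges overlapped between the groups. The part of these lists in the CELA1 difference was not tested. In pieces of whole tissue, fewer cells of a type and less RNA per cell cannot be told apart.

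Elastin itself read almost the same in every fox. The brighter ELN probe set gave 140.3, 128, 121, 136 and 133 in affected foxes 19, 55, 107, 381 and 757, and 132, 139 and 98.0 in unaffected foxes 86, 97 and 402. Only unaffected fox 402 was set apart, below the other 7. The means were 132 ± 7.34 (SD, n = 5) and 123 ± 21.8 (SD, n = 3), a log2 difference of 0.10 ± 0.16 (SE). The second ELN probe set was at background on all 8 arrays, with signals of 1.27 to 3.77, so elastin rests on 1 probe set.

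FBN1, the fibrillin of the microfibril, varied more between foxes than between groups. Its brightest probe set read 264, 224, 360.4, 445 and 444 in affected foxes 19, 55, 107, 381 and 757. It read 587, 243 and 178 in unaffected foxes 86, 97 and 402, so the unaffected group held both the highest and the lowest fox. The log2 difference was 0.17 ± 0.37 (SE). The second brightest and the next probe set differed by 0.047 and 0.14 and put fox 86 highest and fox 402 lowest too. The fourth was above background in 4 of 8 foxes and was not tested.

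The microfibril-associated proteins were dim. MFAP5, which binds fibrillin, read 44.1, 54.6, 35.8, 23.8 and 27.3 in affected foxes 19, 55, 107, 381 and 757, and 37.4, 42.0 and 24.1 in unaffected foxes 86, 97 and 402. The groups overlapped over nearly their whole range, with a log2 difference of 0.059 ± 0.23 (SE). Its second probe set was above background in 1 fox. MFAP4, a fibrinogen-related glycoprotein of microfibrils, was too dim to be tested at either of its probe sets. One of them nevertheless read above background in all 3 unaffected foxes, at 16.1, 23.5 and 12.4 in foxes 86, 97 and 402. It was above background in 1 of the 5 affected foxes, with 0.661, 0.725, 2.81, 2.69 and 14.9 in foxes 19, 55, 107, 381 and 757. The ranges overlapped through affected fox 757. Its log2 difference was -0.74, larger in size than that of any tested fibre gene and opposite in direction. Such signals are close to background, and the other MFAP4 probe set was at background in every fox (0.789 to 2.87).

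Among the genes that assemble the fibre, EMILIN1, which lies where elastin meets the microfibril, had the largest difference after CELA1 among the tested probe sets. Its brightest probe set read 321, 1086, 426, 479.9 and 522 in affected foxes 19, 55, 107, 381 and 757, and 454, 281 and 378 in unaffected foxes 86, 97 and 402. The groups overlapped, and affected fox 55 stood above all others. The means were 567 ± 299.8 (SD, n = 5) and 371 ± 86.7 (SD, n = 3), with a log2 difference of 0.49 ± 0.34 (SE), or 0.23 without fox 55. The other 4 probe sets of EMILIN1 differed by 0.35, 0.083, 0.032 and -0.055. FBLN5, which tethers elastin to cells and microfibrils, read 64.2, 115, 100.5, 97.5 and 76.6 in affected foxes 19, 55, 107, 381 and 757. In unaffected foxes 86, 97 and 402 it read 125, 62.1 and 53.8, again with fox 86 highest and fox 402 lowest of all. Its log2 difference was 0.20 ± 0.26 (SE), and its other 2 probe sets differed by 0.14 and -0.10.

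The crosslinking enzyme LOX was above background in 3 foxes. It read 50.3 and 13.8 in affected foxes 107 and 381 and 65.5 in unaffected fox 86. The other foxes were at background, with 7.92, 16.4 and 2.00 in affected foxes 19, 55 and 757 and 2.17 and 2.07 in unaffected foxes 97 and 402. Its log2 difference of 0.040 ± 0.54 (SE) therefore says little about the enzyme in either group.

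**Figure D2:**
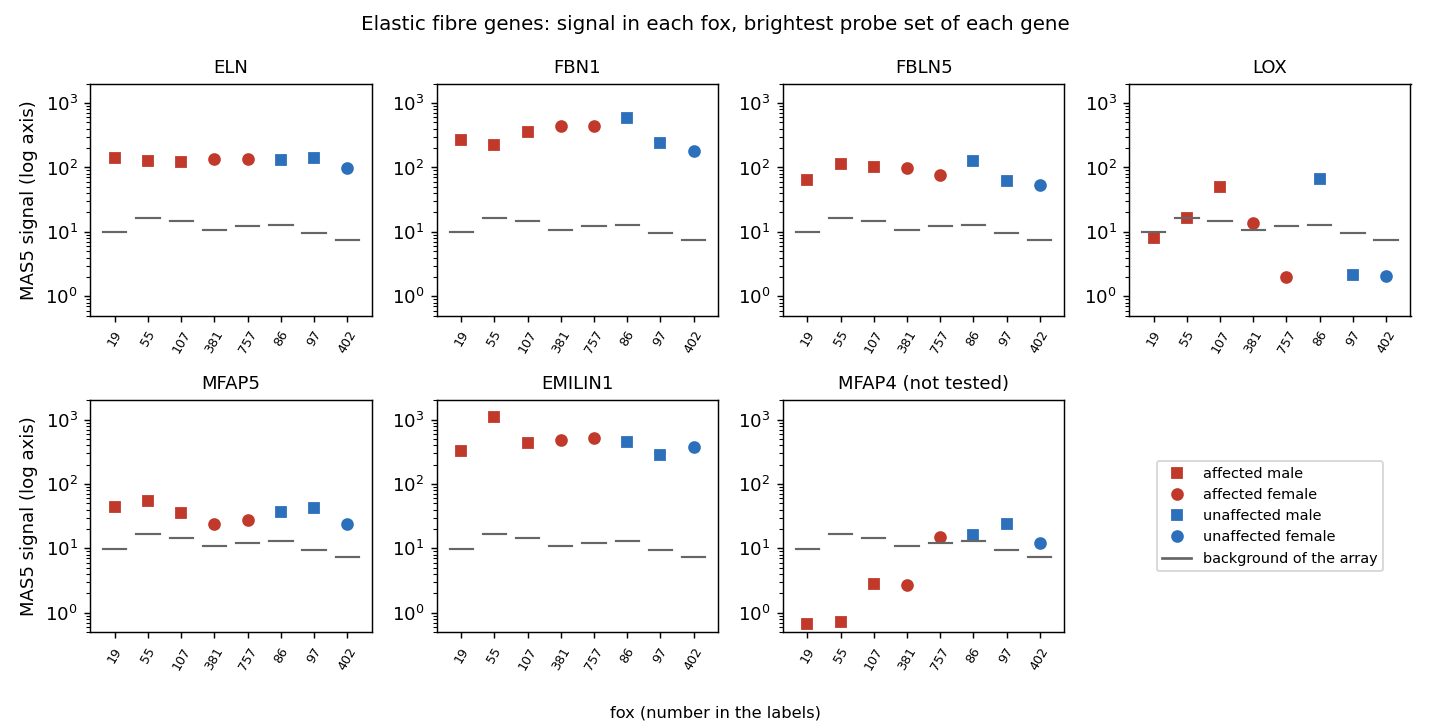
MAS5 signal (vertical log axis, the same in each panel) of the brightest probe set of 7 elastic fibre genes in each fox, affected in red and unaffected in blue, squares for males and circles for females, with array backgrounds as grey bars. ELN is nearly level over the foxes, FBN1 and FBLN5 are highest in unaffected fox 86 and lowest in unaffected fox 402, and LOX and MFAP4 lie near background.

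The fibre genes with a tested probe set differed far less between the groups than CELA1. CELA1 was chosen for its difference, which ranked 3 by absolute size among the 25754 probe sets tested. A smaller difference in other genes follows from that choice and is no result about the fibre. On log2(signal + 16) the brightest probe set of each of the 6 tested fibre genes had a higher mean in affected foxes, by 0.040 to 0.49 with a median of 0.14. For LOX the direction changed with the scale. Its mean signal was lower, at 18.1 ± 18.8 in affected (SD, n = 5) against 23.2 ± 36.6 (SD, n = 3). Its log2 difference was 0.57 with an offset of 1 and -0.038 with an offset of 64. MFAP4, which was not tested, was lower, and with no filter on low signal 6 genes were higher and 1 lower, with a median of 0.099. Over all 10848 genes tested the median was -0.027, and 45.3% had higher means in affected foxes. Of the 14 tested probe sets of these genes, 12 had higher and 2 lower means, and in 12 the difference was smaller than its standard error. In 0 of the 14 did the groups separate, where 2.43% of all probe sets did so in either direction (1.52% with every affected fox below every unaffected one). Limma called 0 of them, and 0 had an unadjusted p under 0.05. The genes were listed with results of this contrast known, so these counts and the shared direction are a description and no test of the genes. The shared direction rested on single unaffected foxes: the median was 0.58 without fox 86, and -0.067 without fox 402, where 4 of the 6 genes had lower means in affected foxes.

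**Figure D3:**
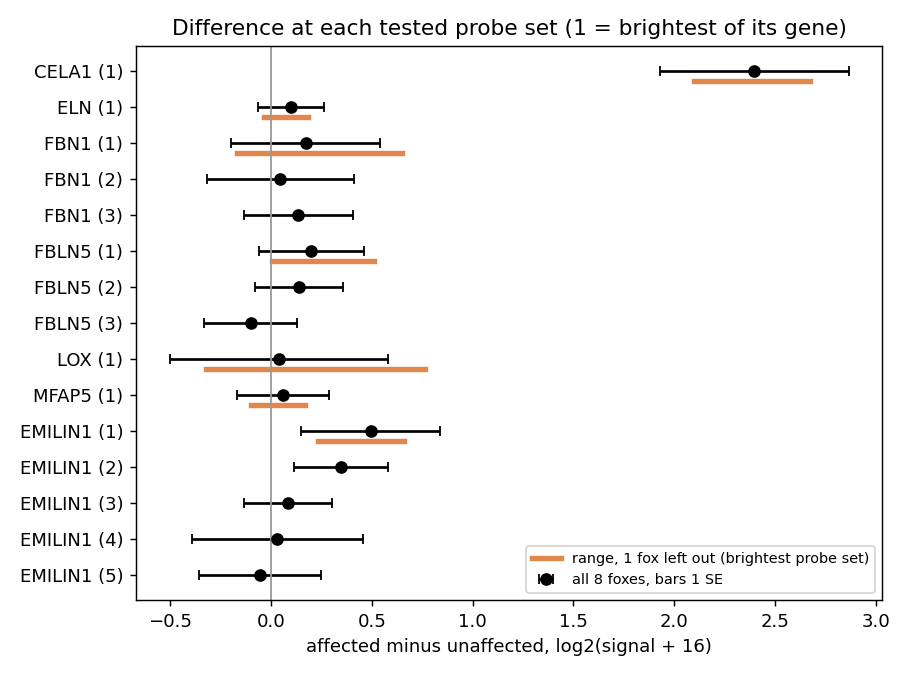
Difference between affected and unaffected foxes on log2(signal + 16) (horizontal axis) at each of the 15 tested probe sets, numbered by brightness within a gene. Black points are all 8 foxes with 1 SE, and orange bars give the range when each fox is left out in turn; CELA1 lies at 2.40 and the other probe sets between -0.10 and 0.49.

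Sex was the next comparison, which the choice of these genes had not used. In a limma fit with terms for disease and sex, 1 of 25754 probe sets passed an adjusted p of 0.05 (0.00388%), and it was none of the 15. That probe set, named after its values were seen, is annotated to EIF2S3, a translation initiation factor, and read 747 to 970.3 in the males and 1.36 to 2.63 in the females, matching the labelled sexes. CELA1 differed between males and females by 0.12 ± 0.50 (SE). MFAP5 was the 1 probe set of the 15 with an unadjusted p under 0.05 (2.29% of all probe sets had one). The 5 males read 44.1, 54.6, 37.4, 42.0 and 35.8 in foxes 19, 55, 86, 97 and 107, and the females 23.8, 24.1 and 27.3 in foxes 381, 402 and 757. The sexes did not overlap, which held for 1 of the 15 and for 2.38% of all probe sets. The difference of 0.51 ± 0.17 (SE) on the log2 scale did not pass in limma (unadjusted p = 0.0158, adjusted p = 0.9999).

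The disease difference was also set side by side within each sex. Affected minus unaffected, the brightest FBN1 probe set gave -0.43 in males and 1.24 in females on the log2 scale. The next probe set gave -0.44 and 0.96, and the dimmest tested one -0.30 and 0.93. The interaction for the brightest FBN1 probe set was -1.67 ± 0.64 (SE), which did not pass in limma (unadjusted p = 0.0304, adjusted p = 1). The dimmest tested probe sets of FBN1 and FBLN5 had interactions of -1.23 ± 0.46 and -1.03 ± 0.36 (SE), in limma also with an unadjusted p under 0.05 and an adjusted p of 1. Over all probe sets 2.47% had such a p, and 1.75% with a negative interaction. Of the 14 fibre probe sets 10 had a negative interaction, where 54.1% of all probe sets did. Limma called 0 of 25754 probe sets in this comparison (0%), and 636 had an unadjusted p under 0.05. The female side rests on unaffected fox 402 alone, the lowest fox for FBN1, and the same fox was the 1 unaffected animal of the dim 5' actin set. In the bright and in the dim 5' actin set, in that order, the disease difference was 0.073 and 0.69 for FBN1, -0.079 and 0.40 for ELN, -0.014 and 0.60 for FBLN5, and -0.23 and 0.46 for MFAP5. For EMILIN1 it was 0.39 and 0.53. The difference of CELA1 between the sexes' disease effects was 0.43 ± 1.09 (SE), an error too wide to separate a like response from an unlike one.

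**Figure D4:**
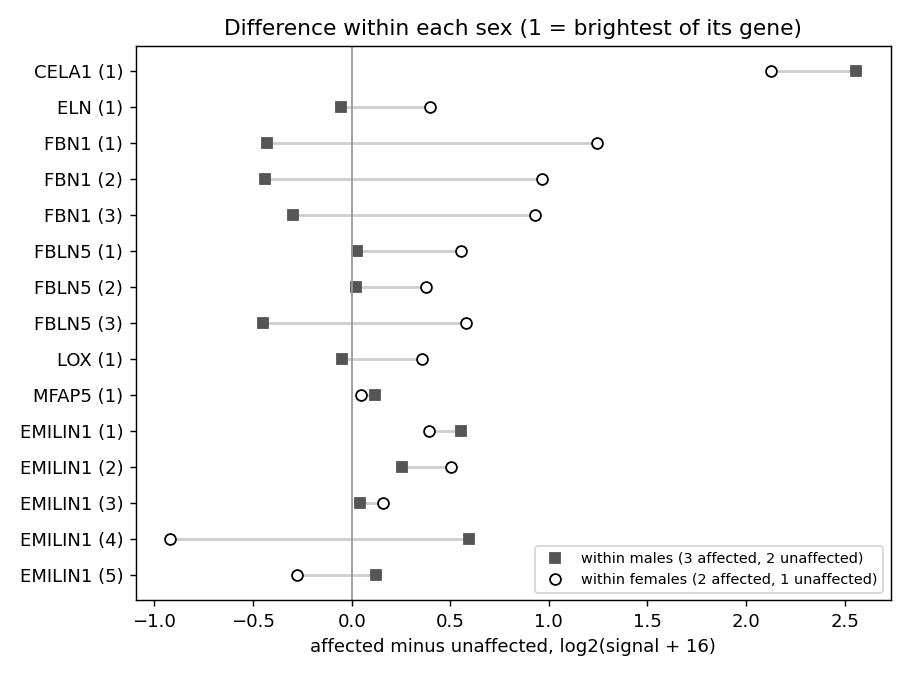
Difference between affected and unaffected foxes on log2(signal + 16) (horizontal axis) at each tested probe set, within males (grey squares, 3 affected and 2 unaffected) and within females (open circles, 2 affected and 1 unaffected). The 3 FBN1 probe sets lie below 0 in males and near 1 in females, while CELA1 lies above 2 in both.

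Whether the genes of the fibre vary together from fox to fox was asked over the 15 pairs of the 6 tested genes. Of the pairs 13 had a positive Pearson correlation over the 8 foxes, and 0 passed an exact permutation test after Benjamini-Hochberg adjustment over the pairs. The closest pair was FBLN5 and LOX, with r = 0.81 (exact permutation p = 0.0117, adjusted p = 0.176) and Spearman's rho = 0.83 (exact permutation p = 0.0154, adjusted p = 0.231). Without foxes 86 and 402 that r was 0.68, and it was 0.81 with the means of the actin sets removed. LOX was above background in 3 of these foxes. FBLN5 and EMILIN1 gave r = 0.65 (exact permutation p = 0.0605, adjusted p = 0.454) and rho = 0.64 (exact permutation p = 0.0962, adjusted p = 0.712), and r = 0.82 without foxes 86 and 402. ELN and FBN1, core and scaffold, gave r = 0.47 (exact permutation p = 0.244, adjusted p = 0.731) and rho = 0.29 (exact permutation p = 0.501, adjusted p = 0.712). That r turned to -0.16 without foxes 107 and 402. Probe sets of the same gene were compared as a check, over 16 pairs. All 16 were positive, and 4 passed: the 3 pairs of FBN1, with r from 0.89 to 0.93 (adjusted exact permutation p from 0.0111 to 0.0191), and 1 of the 10 pairs of EMILIN1, with r = 0.77 (adjusted exact permutation p = 0.0341). By Spearman's rho 2 of the FBN1 pairs passed, with an adjusted exact permutation p of 0.0179 each, while the other FBN1 pair and the EMILIN1 pair gave 0.0571 and 0.0871. The 3 probe sets of FBLN5 correlated by 0.27, 0.58 and 0.29 (adjusted exact permutation p from 0.269 to 0.561). Over 8 foxes this cannot tell whether the 3 report one common level.

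The cell type markers that moved with FBN1 were read after these values had been seen. A score was taken as the mean centred log2 signal of a marker list, and 24 relations were computed, 6 genes against 4 lists. FBN1 correlated with the fibroblast score, of 10 tested genes, at r = 0.92 (exact permutation p = 0.00211, adjusted p = 0.0375) and rho = 0.88 (exact permutation p = 0.00724, adjusted p = 0.0869). With the smooth muscle and pericyte score it gave r = 0.90 (exact permutation p = 0.00313, adjusted p = 0.0375) and rho = 0.90 (exact permutation p = 0.00456, adjusted p = 0.0869). With the endothelium score it gave r = 0.86 (exact permutation p = 0.006, adjusted p = 0.048) and rho = 0.79 (exact permutation p = 0.0279, adjusted p = 0.223). Without foxes 86 and 402 the 3 values of r were 0.84, 0.75 and 0.66, and with the means of the actin sets removed they were 0.94, 0.94 and 0.83. The adjusted p of the fibroblast relation was 0.2 without fox 86 and 0.229 without fox 402. The cornified envelope score went the other way for FBN1, at r = -0.69 (exact permutation p = 0.0547, adjusted p = 0.328) and rho = -0.31 (exact permutation p = 0.462, adjusted p = 0.820). ELN, in contrast, gave r = 0.32 with the fibroblast score (exact permutation p = 0.495, adjusted p = 0.791) and rho = 0.071 (exact permutation p = 0.882, adjusted p = 0.882), and EMILIN1 gave r = -0.10 (exact permutation p = 0.841, adjusted p = 0.882) and rho = 0.17 (exact permutation p = 0.703, adjusted p = 0.820). Whether ELN and FBN1 differ in this was not tested. The fibroblast sum ran from 14229 to 31702 with disease and from 10106 to 33238 without. The fibroblast score was highest in fox 86, at 0.75, and lowest in fox 402, at -0.61, and the cornified envelope score was lowest in fox 86, at -1.85. The part of these markers in the FBN1 values was not tested further.

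**Figure D5:**
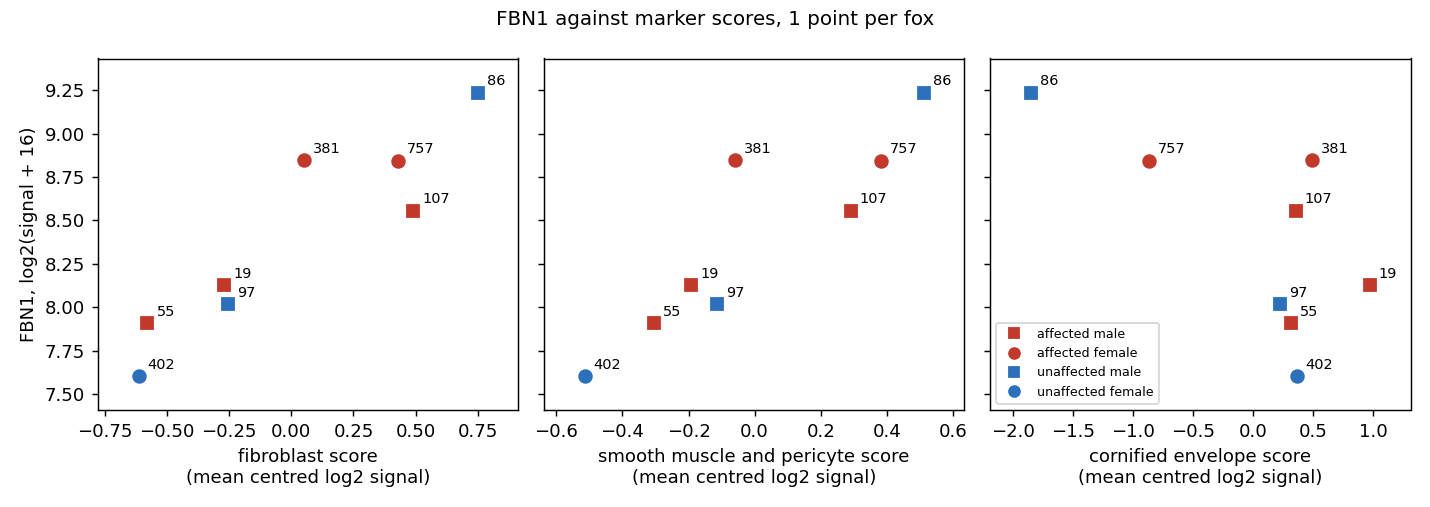
FBN1 on log2(signal + 16) (vertical axis) against the scores of 3 marker lists (horizontal axes, mean centred log2 signal), 1 point per fox with its number, affected in red and unaffected in blue. Foxes high in FBN1 are high in the fibroblast and smooth muscle scores (r = 0.92 and 0.90), with unaffected foxes 86 and 402 at the ends and affected foxes between them.

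Genes beyond these were read from 4 lists of the same pathway, 1 probe set a gene. In elastic fibre scaffold and assembly 23 of 31 listed genes were tested, with 9 higher and 14 lower in affected foxes and a median log2 difference of -0.052. Limma called 0, and 0 had an unadjusted p under 0.05. The members with the largest differences were LTBP2 at -0.59 ± 0.36 (SE), LTBP1 at 0.40 ± 0.36, FBLN1 at 0.35 ± 0.44 and LTBP4 at -0.34 ± 0.28. The LTBP proteins are fibrillin relatives that bind latent TGF-beta, and FBLN1 is a fibulin that binds elastin. The other tested LTBP2 probe set differed by 0.46, opposite to the first. That of LTBP4 differed by -0.15, and those of FBLN1 by 0.37, 0.25 and 0.15. FBLN1 read 67.8, 176, 192, 151 and 168 in affected foxes 19, 55, 107, 381 and 757 and 269.7, 71.7 and 61.5 in unaffected foxes 86, 97 and 402, with fox 86 highest and fox 402 lowest as in FBN1 and FBLN5.

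In crosslinking enzymes 5 of 8 listed genes were tested, with 4 higher and 1 lower, a median of 0.097, 0 called by limma and 0 at an unadjusted p under 0.05. LOXL2, a lysyl oxidase, read 371, 210.4, 530.2, 465 and 437 in affected foxes 19, 55, 107, 381 and 757 and 722, 143 and 197 in unaffected foxes 86, 97 and 402. Unaffected fox 86 was highest and unaffected fox 97 lowest, and the difference was 0.46 ± 0.47 (SE). LOXL3 differed by 0.25 ± 0.21, BMP1, a protease that activates lysyl oxidases, by 0.10 ± 0.21, and PCOLCE, an enhancer of that protease, by 0.067 ± 0.54. The other 2 PCOLCE probe sets differed by -0.21 and -0.20. Other tested probe sets differed by 0.23 and 0.11 for LOXL2 and by 0.037 and 0.00025 for BMP1. A LOXL2 probe set too dim to be tested differed by -0.28.

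Of 14 other elastases 6 were tested, with 5 higher and 1 lower, a median of 0.19 and 0 called by limma, and 1 at an unadjusted p under 0.05. That 1 was MMP9, a gelatinase that also cuts elastin, at 71.0, 182, 55.3, 60.2 and 78.4 in affected foxes 19, 55, 107, 381 and 757. It read 30.7, 15.2 and 33.7 in unaffected foxes 86, 97 and 402, and the groups did not overlap. Its difference was 1.23 ± 0.33 (SE), and 0.35 and 0.28 at probe sets too dim to be tested. Over all probe sets tested 0.916% separated in this direction and 2.69% had an unadjusted p under 0.05 in limma. Of all genes tested 45.3% had higher means in affected foxes. MMP7, matrilysin, read 1816, 541, 199, 507 and 231 in affected foxes 19, 55, 107, 381 and 757 and 59.5, 34.7 and 572 in unaffected foxes 86, 97 and 402. The ranges overlapped through unaffected fox 402, and the difference was 1.90 ± 0.86 (SE). MMP14 and MMP2 differed by -0.31 ± 0.22 and 0.20 ± 0.44.

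The inhibitors of elastases were bright, and 10 of 14 listed genes were tested. Of these 9 were higher and 1 lower with disease, at a median of 0.26. Limma called 0, and 1 had an unadjusted p under 0.05. That gene was SERPINB6, an intracellular serine protease inhibitor, at 2374, 3936, 2629, 3065 and 2233 in affected foxes 19, 55, 107, 381 and 757. In unaffected foxes 86, 97 and 402 it read 1523, 1818 and 1956, and the groups did not overlap. The difference was 0.66 ± 0.22 (SE), with 0.54, 0.66 and 0.42 at its other 3 probe sets (adjusted p in limma 0.9999). Separation in this direction was seen in 0.916% of the probe sets tested, and an unadjusted p under 0.05 in limma in 2.69%. Means were higher with disease for 45.3% of all genes tested. SERPINA1, the plasma inhibitor of neutrophil elastase, differed by 0.52 ± 0.38. PI3, the epithelial elastase inhibitor elafin, differed by 0.52 ± 0.41, and by -0.13 at its other probe set. TIMP1, an inhibitor of metalloproteinases, differed by 0.37 ± 0.28.

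The genes most like CELA1 and ELN were named by Pearson's r over the 8 foxes with the group means removed, among the genes above background on all arrays (9250 for CELA1 and 9249 for ELN). The lists are descriptions. For CELA1 these were GK, a glycerol kinase (0.98), SLC43A1, an amino acid transporter (0.96), ACKR3, a chemokine scavenging receptor (0.95), TMEM106C (0.95) and ANXA1, an annexin abundant in oral epithelium (0.95). ANXA1 read 9523, 13180, 10929, 9631 and 12050.3 in affected foxes 19, 55, 107, 381 and 757 and 9413, 8108 and 8315 in unaffected foxes 86, 97 and 402. Its order within each group was that of CELA1 but for a swap of foxes 19 and 381. For ANXA1 the affected foxes lay above the unaffected ones, but narrowly, at 9523 in fox 19 against 9413 in fox 86. The log2 difference of ANXA1 was 0.35, and 0.916% of the probe sets tested separated in this direction. GK, SLC43A1, ACKR3 and TMEM106C, which were more like CELA1, overlapped between the groups. Their log2 differences were 0.097, -0.037, 0.48 and 0.021. Of the fibre genes EMILIN1 was nearest to CELA1 in this measure, with r = 0.72, and 0.60 to 0.86 with 1 fox left out. That r was at percentile 94.96 of all genes tested, so many other genes lay closer to CELA1. ELN gave -0.30. The genes most like ELN were FAM184B (0.94), CTNS, the lysosomal cystine transporter (0.92), TTC9C (0.92), SLC25A32, a mitochondrial folate transporter (0.92) and CACTIN (0.91), none of them in the lists above. Like ELN, each of these genes read lowest in unaffected fox 402, at 12.7, 91.9, 131.8, 117.2 and 31.2 in that order. Likeness to ELN was not computed without that fox.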

How the data were processed

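Per the submitters' processing notes, the authors made the deposited intensity values with MAS5; for its version, background settings and scaling target nothing was stated. After trimming 2% from either tail, each array averaged 150.0. The table held 43035 probe sets, 111 of them controls. The annotation gave 1 symbol for 29254, several for 439 and none for 13231, and none of the 9 genes was named in a probe set with several. Intensities were taken as log2(signal + 16). Probe sets in the lowest 40% by mean signal were dropped, leaving 25754. Limma 3.58.1 in R 4.3.3 (lmFit, eBayes, Benjamini-Hochberg over all probe sets, threshold 0.05) was fitted for disease, for sex with a disease term, and for their interaction, and the fits were tested on simulated data. A gene's brightest probe set stood for it in lists and correlations. SE is that of the fit, and the number of arrays limits precision: the median SE was 0.23. Whether the foxes were related is not stated.

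The genes and lists were chosen with earlier results of these data known. By a rule, the 4 tested genes with the largest absolute difference in each pathway list and the 5 most like CELA1 and ELN were named, passing over LOC and ENSCAFG symbols and antigen receptor segments. Alternatives covered the offset, normalization, the filter, covariates, array weights, probe sets per gene, males only, centred values and each fox left out. The marker scores and the neutrophil sum without S100A8 and S100A9 were added after seeing the data. Lists of fibroblast, smooth muscle, endothelium, skeletal muscle and adipocyte markers had median differences of 0.022, 0.027, -0.15, 0.0041 and 0.051, with 0 genes called by limma and 0 at an unadjusted p under 0.05 in each. Mast cell, macrophage and salivary lists had -0.12, 0.18 and 0.22, with 0 called and 1 at an unadjusted p under 0.05 in each. Such a p in limma was seen in 2.69% of all probe sets tested.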

Additional observations from a re-analysis of the deposited data

How the results depend on the processing

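The CELA1 difference was positive under all 16 alternatives. As its groups did not overlap, that sign was fixed in advance for the offsets, males only and each fox left out. The size of the difference followed the offset added before the logarithm, at 3.49 with an offset of 1 and 1.41 with 64. The median of the elastic fibre genes ranged from -0.067 to 0.58 when each fox was left out, and was -0.010 in males only. In males only, FBN1 differed by -0.43 and ELN by -0.055; the causes were not tested. Limma called 0 probe sets between affected and unaffected foxes under each of 17 alternatives, and 0 for the interaction under 13. The interaction could not be fitted without fox 402, the only unaffected female. Males against females gave 1 to 2 probe sets when each fox was left out. Of the gene pairs 0 passed under each of 16 alternatives. The correlations of FBN1 with the fibroblast, smooth muscle and endothelium scores stayed positive and past the threshold in 9, 9 and 6 of 16 alternatives. No paired analysis was possible because the groups share no fox numbers. Dim signals limit LOX, MFAP4 and MFAP5.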
